A study of Mus musculus with 22 samples.

Results

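Arterial smooth muscle cells from the heart were compared with those from the urinary bladder, across all genes. The comparison uses 3 heart and 3 bladder libraries, 6 of the 22 in the series. It sets the coronary bed against the arteries of a distensible pelvic organ. The other 16 libraries, from aorta, lung, kidney, stomach and intestine, served to estimate the spread and to place each gene among the tissues. The bladder mice, like those of the 5 other tissues, carried Cspg4-Dre/Acta2-CreERT/R26-GFP, and the heart mice Cspg4-DreERT/Acta2-CreERT/R26-GFP. The Dre is thus tamoxifen-dependent in the heart only, and tissue and genotype cannot be told apart in this comparison. All mice had received tamoxifen (0.75 mg per 10 g body weight for 3 days). Cre and Dre are site-specific recombinases. Acta2, which encodes smooth muscle alpha-actin, is active in smooth muscle of arteries, veins and organ walls, and Cspg4, which encodes the proteoglycan NG2, in pericytes and other mural cells. R26-GFP is the reporter. Cells were sorted by fluorescence. Whether the 3 libraries of a tissue stand for 3 animals is not in the labels. The p-values therefore describe the variation among these libraries, part or all of which may be technical.

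Smooth muscle is built from different embryonic sources along the body. Coronary smooth muscle comes largely from the epicardium, the cell layer that covers the heart, and the vessels of the bladder from mesenchyme of the caudal body. Hox genes mark position along the trunk, with the high-numbered groups used in its caudal end, and bladder mesenchyme develops next to an epithelium that releases Hedgehog ligand. Notch signalling between endothelium and mural cells is known to support the arterial smooth muscle state.

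Values are the deposited signal, a read number scaled per library, and differences are heart minus bladder on the log2(signal + 1) scale, ± the standard error from limma. A gene was called at a Benjamini-Hochberg adjusted p under 0.05 from limma over the 16917 genes tested. Where a gene is at 0 throughout several tissues, the joint fit can give it a small spread. Its adjusted p can then be far larger in the 6 libraries alone. Rebuilt depth was 4389363 to 8611800 reads in 5 of the 6 libraries and 817157 in heart 3, where 1 read is worth a signal of 8.0895 and 3 reads 24.3. A value of 0 in heart 3 is thus a weaker statement than in the other libraries, where 3 reads are worth 2.3 to 4.0. Against a group listed at 0 throughout, folds are lower bounds from a floor of 3 reads per library, a mean signal of 9.7 in heart and 3.1 in bladder. For genes at or close to 0 in a group, the fitted difference depends on the pseudocount. Of the tested genes, 1471 reached 0.5 rebuilt reads per exonic base in some heart or bladder library. The signal of such genes can follow the worth of 1 read, most of all in heart 3, and they are called near the read ceiling below. Library profiles correlated at 0.889 to 0.908 within bladder, 0.819 to 0.94 within heart and 0.707 to 0.853 between the tissues.

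The genes whose loci drive the recombinases were present in both tissues. Acta2 (chromosome 19) was at 3309, 2822 and 19908 in heart and 2128, 2771 and 2582 in bladder, near the read ceiling, and was not called (1.20 ± 0.50, adjusted p = 0.122). Cspg4 was at 992, 1486 and 1302 in heart and at 800, 179 and 15 in bladder, and was not called either (3.23 ± 1.17, adjusted p = 0.0757). All 3 heart libraries lay above all 3 bladder libraries for Cspg4, and bladder 3 was far below the other bladder libraries. Bladder 3 also stood apart in epithelial markers, as given below.

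In all, 2375 genes were called, 14.0% of those tested. They comprised 861 genes higher in heart (5.09%) and 1514 higher in bladder (8.95%), so 36.3% of calls were higher in heart. With array weights, which let libraries differ in precision, that share was 46.6%, and without the aorta libraries and heart 3 it was 49.1%. The median difference over all tested genes was -0.19. Heart libraries all exceeded bladder libraries for 10.3% of tested genes, and bladder libraries all exceeded heart libraries for 15.1%. Among the called genes, 286 higher in bladder were listed at 0 in every heart library, and 33 higher in heart were listed at 0 in every bladder library. These counts are not like measures, since the shallow heart 3 had 12244 genes above 0 and the bladder libraries 17482 to 19463. Some of the 286 were low, such as Agr2, at least 1.17-fold higher in bladder. Fitting only the 6 libraries called 565 genes, 167 higher in heart and 398 higher in bladder. That fit called 64 of the 193 called genes that the rule for named genes picked. Higher-in-heart calls numbered 563 without bladder 3, and higher-in-bladder calls 1004 without heart 3.

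**Figure D1:**
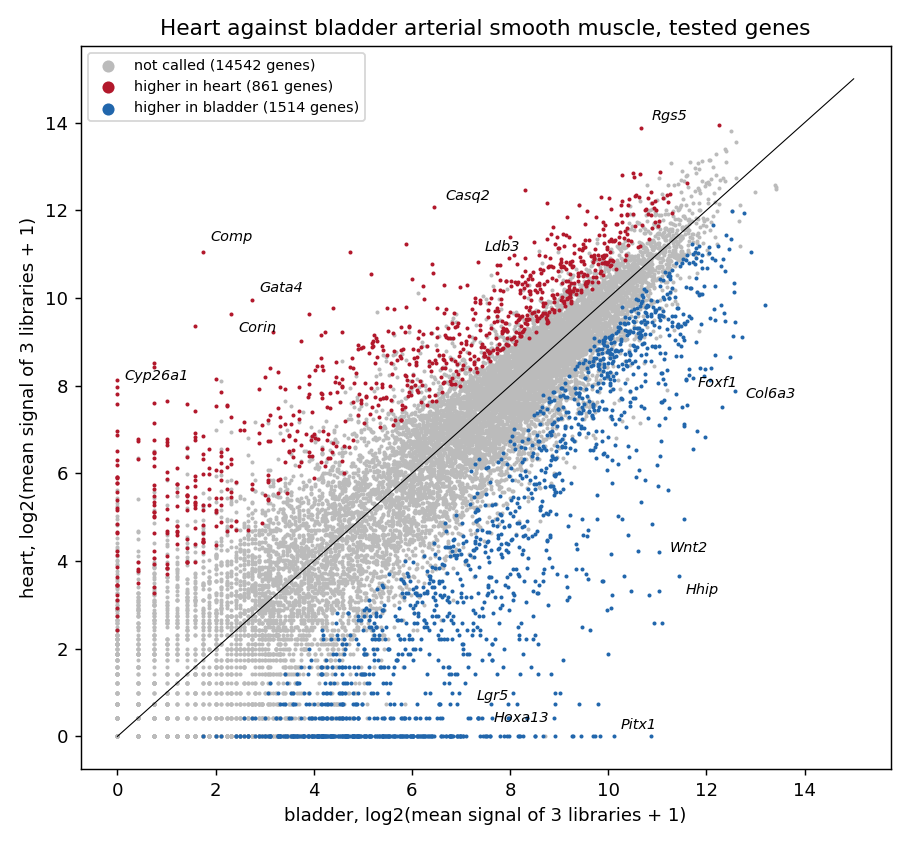
Mean signal of each tested gene in the 3 bladder libraries (horizontal axis) and the 3 heart libraries (vertical axis), both as log2(mean + 1). Red points are the 861 genes called higher in heart, blue points the 1514 called higher in bladder, and the line marks equal means. Pitx1 and Hoxa13 lie on the axis at a heart mean of 0, Cyp26a1 at a bladder mean of 0.

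The tested Hox genes of the caudal groups were nearly all called higher in bladder. Of 12 tested Hox genes of groups 9 to 13, 11 were called higher in bladder and 0 higher in heart by limma (0 also at an unadjusted p under 0.05, and 0 with edgeR, voom and DESeq2), with a median difference of -5.03 (-3.57 with all-0 groups at their bound). The count was 11 without heart 3, 11 without bladder 3 and 9 in the 6 libraries alone. It was 5 with a mean signal of at least 50 required, since fewer Hox genes were then tested. Of 15 such genes with values, 12 passed the filter of a signal of 10 in 3 libraries of any tissue. Hoxa13 and Hoxd13, at means of at most 3.0 and 1.333 outside the bladder, passed only through the bladder libraries. Such genes could only be called higher in bladder, so the 0 in heart is partly set by the filter. Hoxc9, Hoxc11 and Hoxd11 were low, at least 1.79-, 1.79- and 1.72-fold higher in bladder. Hoxa13, the most caudal gene of its cluster (chromosome 6, 52234674 to 52237788, mm39), was at 493, 628 and 323 in bladder and at 0 in every heart library. It was at least 49.6-fold higher in bladder (adjusted p = 5.46e-08). Hoxa11 followed the same pattern with 839, 626 and 381 against 0, 0 and 0, at least 63.4-fold (adjusted p = 8.47e-11). Hoxa11 was also at a mean of 0 in aorta, lung, stomach and intestine, which lowers the spread behind that p-value. With limma in the 6 libraries alone, the adjusted p was 0.0162 for Hoxa13 and 0.0162 for Hoxa11. Hoxa10 was at 1089, 1092 and 856 in bladder and 0, 8 and 0 in heart (-8.92 ± 0.98, adjusted p = 5.33e-06), and Hoxa9 at 119, 89 and 343 against 0, 0 and 0. No bladder value of these 4 genes came near a heart value. The HoxA and HoxD clusters also host antisense RNAs, and without strand information reads from a gene and its antisense partner cannot be told apart.

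Within the HoxA cluster the bladder mean climbed from 27.0 at Hoxa5 and 6.333 at Hoxa6 to 126.7 at Hoxa7, 183.7 at Hoxa9 and 1012 at Hoxa10. It was 615.3 at Hoxa11 and 481.3 at Hoxa13. These are signals not divided by gene length. Of the HoxD genes, Hoxd13 was at 57, 75 and 85 in bladder and 0 in every heart library, at least 7.46-fold higher (adjusted p = 1.22e-07, chosen after its values were seen).

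Among 19 tested Hox genes of groups 1 to 8, 2 were called higher in heart and 4 higher in bladder, with a median of -0.77 (-0.18 with all-0 groups at their bound). Hoxb2, a gene of the cranial end of the HoxB cluster, was at 77, 70 and 24 in heart and 2, 0 and 8 in bladder (4.11 ± 0.66, adjusted p = 0.000268). Hoxb3 was at 8, 7 and 24 against 1, 0 and 0 (adjusted p = 0.0134, and 0.0629 without heart 3). Hoxa7 went the other way, at 10, 1 and 40 in heart and 98, 120 and 162 in bladder (-3.69 ± 0.74, adjusted p = 0.002). In the other tissues the Hoxb2 mean was 42.67 (stomach) to 145.0 (lung), beside 57.0 in heart and 3.333 in bladder. For Hoxb3 it was 8.333 to 23.33, beside 13.0 and 0.3333, so for both genes the heart lay within that range and the bladder below it. For Hoxa7 it was 32.75 (intestine) to 761.7 (aorta), with the heart at 17.0 below that range.

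Cardiac and epicardial transcription factors were split. Of 18 tested, 6 were called higher in heart and 3 higher in bladder, with a median of 1.35. Gata4, a zinc-finger factor of heart and gut development (chromosome 14, 63436371 to 63509141), was at 749, 1367 and 874 in heart and 16, 1 and 0 in bladder (8.22 ± 0.77, adjusted p = 1.03e-06). Its relative Gata5 had the opposite pattern, at 7, 18 and 0 in heart and 1396, 881 and 951 in bladder (-7.63 ± 0.98, adjusted p = 3.24e-05, near the read ceiling). These 2 GATA factors thus separated the tissues in opposite directions with no overlap of libraries. Mef2c, a muscle transcription factor, was at 1817, 2222 and 4433 in heart and 907, 257 and 204 in bladder (2.85 ± 0.42, adjusted p = 0.000133). Isl1, a factor of the second heart field and of pelvic mesenchyme, was higher in bladder, at 280, 584 and 228 against 21, 11 and 0 (-5.71 ± 1.23, adjusted p = 0.00335). Tcf21, known from epicardium and fibroblasts, was called higher in bladder (-1.67 ± 0.48, adjusted p = 0.0234) and was not called without heart 3 (0.132), bladder 2 (0.0645) or bladder 3 (0.0857).

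Of 27 tested transcription factors of lower body and organ mesenchyme, 13 were called higher in bladder and 1, Nr2f2, higher in heart, with a median of -2.38. The bladder count was 8 without bladder 3 and 6 in the 6 libraries alone. Pitx1, a factor of the hindlimb and pelvic region (chromosome 13, 55972864 to 55984005), was at 1057, 1243 and 1013 in bladder and 0 in every heart library, at least 114-fold higher (adjusted p = 6.58e-10, and 0.0162 in the 6 libraries alone, near the read ceiling). Its mean was 1104 in bladder and 858.3 in stomach, so Pitx1 was not particular to the bladder. Nr2f2, an orphan nuclear receptor known from veins and atria, was at 1342, 1729 and 1197 in heart and 1104, 866 and 511 in bladder (0.83 ± 0.27, adjusted p = 0.0465). It was not called without bladder 2 (adjusted p = 0.0676), bladder 3 (0.238), heart 1 (0.0735), heart 2 (0.132) or heart 3 (0.0504).

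Across 4 genes close together on chromosome 8, differences went in both directions. Foxf1, a forkhead factor of organ mesenchyme that responds to Hedgehog, was at 2865, 3412 and 2967 in bladder and 506, 206 and 129 in heart (-3.69 ± 0.35, adjusted p = 1.35e-06, near the read ceiling). Its start lies 1276 bases from that of the noncoding RNA Fendrr, on the opposite strand (121781621 to 121809849 for Fendrr, 121811125 to 121814883 for Foxf1, mm39). Fendrr was at 879, 961 and 712 in bladder and 0 in every heart library, at least 87.7-fold higher (adjusted p = 2.01e-10, and 0.0162 in the 6 libraries alone). Foxc2, which starts 31785 bases beyond the Foxf1 start, was higher in heart, at 537, 685 and 744 against 244, 81 and 35 (2.86 ± 0.59, adjusted p = 0.00246). Foxl1, 11769 bases further on, was again higher in bladder, at 516, 548 and 79 against 1, 9 and 0 (-6.71 ± 1.16, adjusted p = 0.000536). Among these 4 genes, Foxc2 thus differed in the opposite direction from Fendrr, Foxf1 and Foxl1. Other genes that may lie between them were not looked at. The 250 bases before the Fendrr start, on the side that faces Foxf1, are shown because Fendrr is the member of the pair listed at 0 throughout the heart (RefSeq, GRCm38.p6, chr8:121083111-121083360, minus strand, 62.0% G or C).
Fendrr: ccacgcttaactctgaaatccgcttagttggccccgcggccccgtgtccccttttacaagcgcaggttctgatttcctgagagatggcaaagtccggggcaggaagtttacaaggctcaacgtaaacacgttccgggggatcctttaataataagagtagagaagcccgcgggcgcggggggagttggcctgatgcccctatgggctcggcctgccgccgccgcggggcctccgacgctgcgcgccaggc

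**Figure D2:**
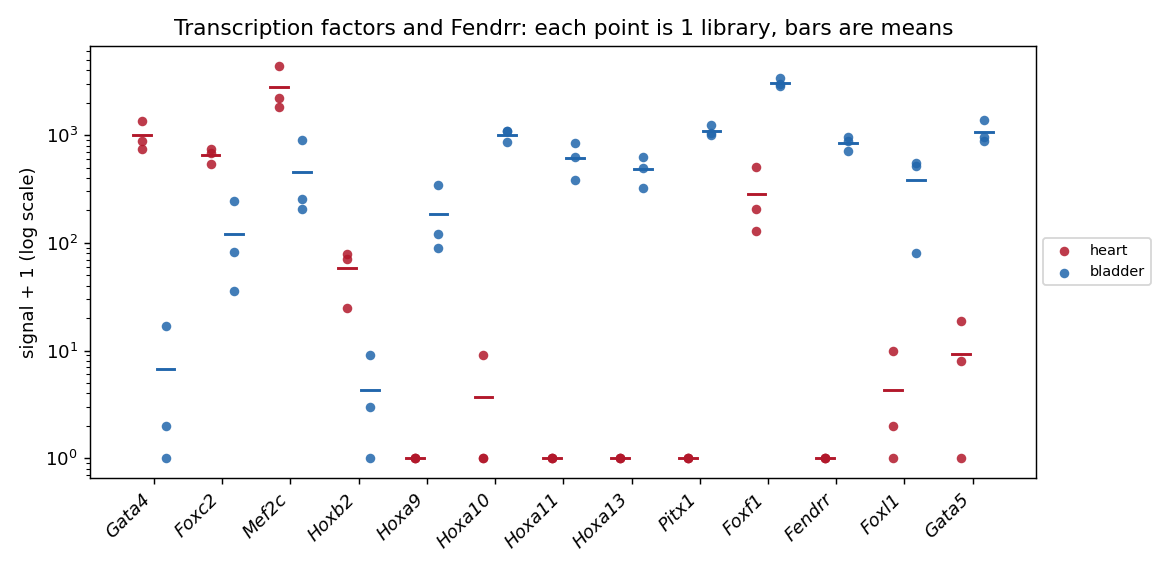
Signal + 1 on a log scale for 12 transcription factor genes and the noncoding RNA Fendrr in each heart (red) and bladder (blue) library, with bars at the means. Hoxa9, Hoxa11, Hoxa13, Pitx1 and Fendrr sit at 0 in all 3 heart libraries. Gata4, Foxc2, Mef2c and Hoxb2 are higher in heart, without overlap.

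Hedgehog, Wnt and BMP genes were weighted to the bladder. Hedgehog ligand acts through Ptch and Smo receptors on Gli factors, and Gli1, Ptch1 and Hhip are its usual target genes. Of 12 Hedgehog response genes, 6 were called higher in bladder (median -2.07), with 1 in the 6 libraries alone. Hhip, which binds and limits Hedgehog ligand, was at 3894, 3030 and 1375 in bladder and 20, 15 and 0 in heart (-8.51 ± 1.48, adjusted p = 0.000582, near the read ceiling). Ptch1, the receptor, was at 1969, 587 and 663 against 67, 143 and 24 (-3.87 ± 0.68, adjusted p = 0.000596). Gli1 was at 765, 470 and 313 against 20, 120 and 0 (-5.15 ± 1.27, adjusted p = 0.00931, and 0.0531 without heart 3). For Hhip and Ptch1 every heart library, the deeper heart 1 and 2 included, was below every bladder library.

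Of 39 tested Wnt pathway genes, 12 were called higher in bladder and 2 higher in heart (median -0.98). The bladder count was 6 in the 6 libraries alone and 6 among genes under the read ceiling. The ligand gene Wnt2 was at 1742, 2050 and 2515 in bladder and 18, 34 and 0 in heart (-7.90 ± 1.03, adjusted p = 3.76e-05, near the read ceiling). Secreted inhibitors were found on both sides. Dkk2 was at 1851, 3127 and 1312 in bladder and 12, 15 and 0 in heart (-8.38 ± 0.83, adjusted p = 1.97e-06), and Notum at 996, 1518 and 673 against 6, 14 and 0 (-7.74 ± 0.78, adjusted p = 2.05e-06), both near the read ceiling. Wif1, which binds Wnt ligands, was higher in heart, at 717, 1317 and 534 against 68, 134 and 107 (2.99 ± 0.57, adjusted p = 0.00135, near the read ceiling). The R-spondin receptors split as well. Lgr5 was at 348, 516 and 111 in bladder and 1, 0 and 0 in heart (adjusted p = 3.11e-07), and Lgr6 at 26, 33 and 32 in bladder and 256, 259 and 97 in heart (2.58 ± 0.58, adjusted p = 0.00476). Notum, Lgr5 and Axin2 are known target genes of canonical Wnt signalling. Axin2, chosen after its values were seen, was at 218, 115 and 118 in bladder and 7, 12 and 0 in heart (-4.94, adjusted p = 0.000135). Nkd1, another Wnt pathway gene, was level, at a mean of 1712 in heart and 1720 in bladder, and was not called (adjusted p = 0.99). Wnt target genes were not counted as a set.

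Of 41 BMP and TGF-beta pathway genes, 9 were called higher in bladder (median -0.53), with 1 in the 6 libraries alone. Ligand genes were among them. Bmp3 was at 1453, 1234 and 821 in bladder and 67, 28 and 0 in heart (-6.50 ± 0.98, adjusted p = 0.000157). Bmp7 was at 953, 1027 and 161 against 4, 0 and 65 (-6.29 ± 1.02, adjusted p = 0.000314). The response genes Id1, Id2 and Id3, all near the read ceiling, were not called.

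Notch genes were weighted to the heart, with 7 of 21 tested called higher there and 1, Dlk1, higher in bladder (median 1.44). The heart count was 6 without heart 3, 7 without bladder 3 and 1 in the 6 libraries alone. Of the ligands, Dll4, the ligand of arterial endothelium, was at 575, 687 and 146 in heart and 23, 49 and 34 in bladder (3.48 ± 0.56, adjusted p = 0.000284). Jag2 was at 523, 571 and 461 against 56, 1 and 50 (4.85 ± 1.24, adjusted p = 0.012, and 0.0755 without bladder 2). Mfng, which adds sugars to Notch receptors, was at 253, 169 and 138 against 11, 0 and 0 (6.31 ± 1.10, adjusted p = 0.000578). Target genes of Notch were called in part. Hey2 was at 527, 478 and 663 against 132, 109 and 31 (2.83 ± 0.45, adjusted p = 0.000244), and Heyl, near the read ceiling, at 2106, 2773 and 3487 against 1569, 478 and 641 (1.80 ± 0.29, adjusted p = 0.0003). Hes1, another target gene, was at 2368, 1954 and 2459 in heart and 1779, 1538 and 1925 in bladder and was not called (0.37 ± 0.31, adjusted p = 0.493, near the read ceiling). The receptor Notch3, at 1608, 2468 and 2823 in heart and 3232, 449 and 223 in bladder, overlapped between the groups and was near the read ceiling. Dlk1, a noncanonical ligand, was at 134, 239 and 299 in bladder and 76, 21 and 0 in heart (adjusted p = 0.0183, and 0.0922 without heart 3, 0.0506 without bladder 2 and 0.0655 without bladder 3). Dll4 and Jag2 are also endothelial genes, and endothelial markers were higher in heart too, as given below. Their part in the Notch difference was not tested.

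The promoter of Hey2 is shown because Hey2 was the Notch target gene with the largest called difference. RBPJ, the DNA-binding partner of Notch, is known to bind GTGGGAA. On either strand this motif is in 5.42% of 32851 RefSeq windows of 250 bases before a gene start, and in 3 of the 18 Notch pathway genes with a window (Hes5, Hey2 and Lfng). In the Hey2 window (GRCm38.p6, chr10:30842784-30843033, minus strand) it stands in capitals as its reverse complement TTCCCAC, from position -207 relative to the start. A match is a description of letters and not of binding.
Hey2: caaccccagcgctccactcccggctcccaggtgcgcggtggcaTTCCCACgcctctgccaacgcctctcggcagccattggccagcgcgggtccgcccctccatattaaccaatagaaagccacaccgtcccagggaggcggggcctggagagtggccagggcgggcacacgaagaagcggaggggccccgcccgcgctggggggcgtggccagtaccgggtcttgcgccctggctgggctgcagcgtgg

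Retinoic acid genes went in both directions. Of 19 tested, 3 were called higher in heart and 4 higher in bladder (median -0.86). Cyp26a1, which degrades retinoic acid, was at 180, 415 and 154 in heart and 0 in every bladder library, at least 80.5-fold higher (adjusted p = 3.11e-07). The retinoic acid-making enzyme gene Aldh1a2 was at 1562, 1908 and 570 in bladder and 36, 109 and 146 in heart (-3.83 ± 0.56, adjusted p = 0.000113, near the read ceiling). Aldh1a3, of the same enzyme family, was at 1479, 432 and 1115 against 82, 169 and 0 (-5.21 ± 1.21, adjusted p = 0.0063). Aldh1a1 was not called (-0.51 ± 0.37, adjusted p = 0.416). Rdh5, a retinol dehydrogenase, was higher in heart, at 500, 388 and 340 against 61, 49 and 50 (2.90 ± 0.36, adjusted p = 1.9e-05), so enzymes of retinoid oxidation were found on both sides. The receptor gene Rxrg was at 224, 83 and 413 in heart and 20, 9 and 0 in bladder (5.06 ± 1.41, adjusted p = 0.0201), and was not called without bladder 3 (0.119) or heart 3 (0.0781).

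Contractile genes were higher in heart where they differed. Of 35 smooth muscle contractile genes, 12 were called higher in heart and 0 higher in bladder by limma (1 at an unadjusted p under 0.05, and 1 each with edgeR, voom and DESeq2), with a median of 1.08. The count was 1 in the 6 libraries alone and 4 among genes under the read ceiling, since 19 of the 35 were near it. Ldb3, a Z-disc protein gene under the ceiling, was at 1174, 1363 and 2888 in heart and 250, 174 and 59 in bladder (3.59 ± 0.50, adjusted p = 7.05e-05). Lmod1, an actin nucleator of smooth muscle, was at 1861, 2007 and 2936 against 647, 556 and 330 (2.17 ± 0.25, adjusted p = 9.17e-06, near the read ceiling). Myh11, the smooth muscle myosin heavy chain, was at 8697, 8901 and 29802 in heart and 8695, 4531 and 1379 in bladder (1.80 ± 0.50, adjusted p = 0.0194, near the read ceiling). Its call was lost without heart 3 (adjusted p = 0.127) and without bladder 3 (0.126), and heart 1 and bladder 1 were level. Ldb3 and Lmod1 separated the tissues without heart 3 and without bladder 3 as well.

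The promoter of Ldb3 is shown because Ldb3 led the contractile list. The CArG box, bound by serum response factor, is in 1.47% of the 32851 windows and in 5 of the 30 contractile genes with a window (Ldb3, Myl6, Myl9, Srf and Vcl), of which Ldb3 was the 1 called. In the Ldb3 window shown (GRCm38.p6, chr14:34588682-34588931, minus strand) it is in capitals, from position -35. Another Ldb3 window, for a different start, holds the same box from position -109. As for the RBPJ motif, the 1.47% counts windows and the 5 of 30 counts genes, so they are not like measures.
Ldb3: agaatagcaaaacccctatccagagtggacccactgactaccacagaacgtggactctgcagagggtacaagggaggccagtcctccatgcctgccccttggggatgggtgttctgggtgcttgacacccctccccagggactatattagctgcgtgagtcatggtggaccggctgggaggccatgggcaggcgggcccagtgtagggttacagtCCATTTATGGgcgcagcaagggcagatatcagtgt

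Calcium handling and channels gave 8 genes higher in heart and 1 higher in bladder of 36 tested (median 1.00). The heart count was 5 without heart 3, 3 without bladder 3 and 0 in the 6 libraries alone. Casq2, the calcium buffer of the sarcoplasmic reticulum, was at 2951, 2698 and 7232 in heart and 215, 45 and 0 in bladder (7.49 ± 1.25, adjusted p = 0.00041, near the read ceiling). Trpv2, a cation channel, was at 1438, 1641 and 979 against 368, 227 and 72 (2.85 ± 0.50, adjusted p = 0.000619). Casq2 and Trpv2 had every heart value above every bladder value. Pln, which restrains the reticulum calcium pump, was at 759, 633 and 1133 against 206, 304 and 51 (adjusted p = 0.0216, with 0.0799 without heart 3 and 0.133 without bladder 3). The mechanosensitive channel gene Piezo1 was the member higher in bladder, at 1034, 133 and 200 against 37, 45 and 73 (-2.58 ± 0.62, adjusted p = 0.008, and 0.0514 without bladder 1).

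Potassium and chloride channels gave 8 genes higher in heart and 3 higher in bladder of 27 (median 0.59), with 5 higher in heart without bladder 3 and 0 in the 6 libraries alone. Voltage-gated and inward rectifier channels made up most of the heart side. Kcna5 was at 1676, 1908 and 1577 in heart and 430, 149 and 52 in bladder (3.51 ± 0.60, adjusted p = 0.000518, near the read ceiling). Kcnh2 was at 626, 515 and 777 against 210, 54 and 8 (3.75 ± 0.71, adjusted p = 0.00117), and Kcnj2 at 76, 137 and 202 against 23, 5 and 1 (4.29 ± 0.91, adjusted p = 0.00297). Bladder had the calcium-activated channel gene Kcnn3, at 637, 231 and 271 against 1, 4 and 0 (-7.31 ± 0.97, adjusted p = 4.23e-05). It also had the stretch-sensitive two-pore channel gene Kcnk2, at 453, 683 and 193 against 11, 36 and 0 (-5.68 ± 1.08, adjusted p = 0.00124). The third bladder gene, Kcnd3, encodes a voltage-gated channel, so that family was found on both sides. Kcnj15, an inward rectifier outside the list, was at 75, 277 and 485 in heart and 0 in every bladder library, at least 90.0-fold higher (adjusted p = 0.00094).

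Of 62 tested vasoactive receptor genes, 8 were called higher in heart and 12 higher in bladder (median -0.45, or -0.12 with all-0 groups at their bound). The 6 libraries alone gave 3 and 3, the heart count was 5 without bladder 3, and it was 4 among genes under the ceiling. The called receptors for angiotensin and bradykinin were on the bladder side. Agtr2, the type 2 angiotensin receptor (chromosome X), was at 332, 40 and 333 in bladder and 0 in every heart library, at least 24.2-fold higher (adjusted p = 0.000115). Agtr1b, a type 1 receptor, was at 173, 306 and 35 against 6, 1 and 0 (-5.69 ± 0.93, adjusted p = 0.000337). Agtr1b and Agtr1a are close copies, so reads may be split between them with some error. Bdkrb2, the bradykinin receptor, was at 1123, 674 and 318 against 18, 21 and 0 (-6.38 ± 1.05, adjusted p = 0.000359). Adra2a, an alpha-2 adrenoceptor, was at 213, 149 and 56 in bladder and 4, 2 and 0 in heart (-5.63 ± 1.16, adjusted p = 0.00238). Another alpha-2 adrenoceptor gene, Adra2b, was higher in heart, at 131, 151 and 40 against 8, 17 and 3 (3.44 ± 1.12, adjusted p = 0.0475). It was not called without heart 1 (0.109), heart 2 (0.107), bladder 1 (0.0975) or bladder 3 (0.168). Avpr1a, the vascular vasopressin receptor, chosen after its values were seen, was at 2430, 2824 and 1254 against 97, 90 and 129 (-4.29 ± 1.14, adjusted p = 0.0152, near the read ceiling, and 0.0526 without bladder 2).

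On the heart side, Uts2r, the urotensin receptor, was at 53, 130 and 113 in heart and 3, 0 and 0 in bladder (5.87 ± 0.72, adjusted p = 1.7e-05). Both subunits of the nitric oxide receptor were higher in heart and near the read ceiling. Gucy1b1 was at 2758, 3153 and 3980 against 922, 598 and 673 (2.18 ± 0.33, adjusted p = 0.000173). Gucy1a1 was at 3864, 4284 and 6965 against 2410, 1189 and 1139 (1.71 ± 0.30, adjusted p = 0.000619). For each subunit every heart library exceeded every bladder library. Npr2, the receptor for C-type natriuretic peptide, which also makes cyclic GMP, was at 1742, 712 and 794 in bladder and 159, 364 and 0 in heart (-4.68 ± 1.29, adjusted p = 0.0191, and 0.0723 without bladder 1). The muscarinic receptor gene Chrm3, listed as a detrusor marker, was low and higher in heart, at 47, 12 and 32 against 0, 0 and 3 (4.11 ± 0.77, adjusted p = 0.00108).

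Extracellular matrix genes were weighted to the bladder. Of 20 fibrillar and fibril-associated collagens, 11 were called higher in bladder (median -2.60). The count was 11 without heart 3, 11 without bladder 3, 6 in the 6 libraries alone and 4 under the read ceiling, which 12 of the 20 reached. Col12a1, a fibril-associated collagen of tissues under tension, was at 5238, 2870 and 2585 in bladder and 41, 120 and 210 in heart (-5.05 ± 0.65, adjusted p = 2.98e-05). Col6a5 was at 596, 57 and 99 against 0 in every heart library, at least 25.8-fold higher (adjusted p = 1.61e-05). The major collagens Col1a2 and Col3a1 had all bladder libraries above all heart libraries without being called. Col3a1 was at 5060, 7013 and 6407 in heart and 8532, 10206 and 13710 in bladder (-0.80 ± 0.31, adjusted p = 0.0977, near the read ceiling). Col1a2 was at 4393, 6417 and 6933 against 8368, 10624 and 13927 (-0.89 ± 0.31, adjusted p = 0.0655, near the read ceiling).

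Basement membrane genes gave 12 of 23 higher in bladder and 1, Npnt, higher in heart (median -1.82). Npnt was not called without bladder 2 (adjusted p = 0.0759) or bladder 3 (0.083). The bladder count was 7 without heart 3, 5 under the ceiling and 0 in the 6 libraries alone. Lama1 was at 280, 26 and 28 in bladder and 0 in every heart library, at least 11.5-fold higher (adjusted p = 0.000379). Lama4, a laminin chain of vessels, was at 5012, 1174 and 2429 in bladder against 522, 801 and 105, and its call (-2.78 ± 0.69, adjusted p = 0.00972) near the read ceiling, was lost without bladder 1 (0.0588) and without heart 3 (0.0687). Of 22 elastic fibre genes, 9 were called higher in bladder (median -0.91), with 4 under the ceiling and 0 in the 6 libraries alone. Emilin2, an elastin-associated glycoprotein, was at 1183, 653 and 766 against 18, 115 and 0 (-6.01 ± 1.10, adjusted p = 0.000859), and Efemp1 at 2244, 3441 and 3226 against 136, 279 and 0 (-6.44 ± 1.40, adjusted p = 0.00366, near the read ceiling).

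Proteoglycan, cartilage-type and matricellular genes split, with 5 of 40 higher in heart and 9 higher in bladder (median -0.12). Under the ceiling, which 25 of the 40 reached, the counts were 1 and 4, and without heart 3 they were 3 and 8. The heart side held genes known from cartilage and joints. Comp, cartilage oligomeric matrix protein (chromosome 8, 70826208 to 70834716), was at 1652, 2853 and 1877 in heart and 6, 0 and 1 in bladder (9.75 ± 1.56, adjusted p = 0.000284, near the read ceiling). Prg4, or lubricin, was at 1082, 1966 and 2168 against 33, 122 and 98 (4.48 ± 1.02, adjusted p = 0.0053, near the read ceiling). Chad, or chondroadherin, was at 2188, 1873 and 2314 against 23, 16 and 38 (6.40 ± 1.79, adjusted p = 0.0206, near the read ceiling). Although the groups for Chad lay far apart, its call was lost without heart 3 (0.057), bladder 1 (0.0537) or bladder 2 (0.0618). On the bladder side Tnc, or tenascin-C, was at 8966, 4086 and 2307 against 75, 133 and 340 (-4.86 ± 0.49, adjusted p = 2.15e-06), and Podn at 2456, 1625 and 2165 against 88, 234 and 89 (-4.06 ± 0.40, adjusted p = 1.83e-06), both near the read ceiling.

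Among 20 integrins, 3 were called higher in heart and 1 higher in bladder (median 0.02). Itga7, a laminin-binding integrin of muscle, was at 2601, 3752 and 3931 in heart and 2150, 461 and 247 in bladder (2.43 ± 0.51, adjusted p = 0.00274), and the collagen-binding Itga11 at 41, 304 and 202 in heart and 4428, 2346 and 1957 in bladder (-4.31 ± 0.76, adjusted p = 0.000598), both near the read ceiling. Another collagen receptor, Itga1, was higher in heart, at 1665, 1800 and 1561 against 697, 544 and 173 (2.05 ± 0.34, adjusted p = 0.000387). Among 30 growth factor genes, 5 were called higher in heart and 4 higher in bladder (median 0.29), and the heart count was 2 without heart 3 and 2 without bladder 3. Pdgfa, a growth factor for mural cells and fibroblasts, was at 1281, 1095 and 1375 in heart and 383, 484 and 286 in bladder (1.73 ± 0.23, adjusted p = 4.65e-05). Its receptor gene Pdgfra was higher in bladder, at 6331, 2926 and 3782 against 153, 734 and 129 (-4.07 ± 0.61, adjusted p = 0.000153, near the read ceiling). Fgf7, a growth factor for epithelia, was at 315, 694 and 398 in bladder and 53, 101 and 0 in heart (-4.65 ± 1.08, adjusted p = 0.0061).

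Genes of oxidative metabolism were higher in heart where they differed. Of 40 nuclear oxidative phosphorylation genes, 12 were called higher in heart (median 0.78). The count was 6 without heart 3, 3 under the ceiling, which 29 of the 40 reached, and 0 in the 6 libraries alone. Ndufs1, a core subunit of complex I under the ceiling, was at 1765, 1614 and 2678 in heart and 881, 866 and 771 in bladder (1.23 ± 0.21, adjusted p = 0.000576). Of 33 fatty acid and glucose genes, 9 were called higher in heart and 1 higher in bladder (median 0.52), with 4 higher in heart without bladder 3. Fabp4, a fatty acid carrier, was at 1104, 943 and 1941 against 216, 398 and 105 (2.60 ± 0.50, adjusted p = 0.00144). Slc2a4, the insulin-dependent glucose transporter, was at 1406, 1246 and 2225 against 773, 312 and 87 (adjusted p = 0.0114), and was not called without heart 3 (0.0533) or bladder 3 (0.08).

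Immediate early, cell cycle, interferon and inflammatory genes gave different counts. Of 30 immediate early genes, which cell isolation can induce, 0 were called by limma (median 0.35), and 23 were near the read ceiling. At an unadjusted p under 0.05, 2 were higher in heart and 1 in bladder. Calls numbered 0 with edgeR and DESeq2, while voom called 2 in each direction. Without the aorta libraries and heart 3, limma called 2 higher in heart and 1 higher in bladder. Egr1 was at 5287, 4666 and 26339 in heart and 4738, 6000 and 7897 in bladder (0.51 ± 0.44, adjusted p = 0.51, near the read ceiling). Of 37 cell cycle genes, 1 was called, Cdc6, higher in bladder (median -1.22). Interferon genes gave 5 of 38 higher in heart and 1 higher in bladder (median 0.32), with 3 higher in heart without bladder 3. Oas2 was at 103, 105 and 170 against 15, 0 and 0 (5.62 ± 1.10, adjusted p = 0.0016). Of 28 chemokine and inflammatory genes, 9 were called higher in bladder (median -1.48), with 5 without heart 3 and 4 without bladder 3. Among these were the prostaglandin enzymes Ptgs1, at 1360, 2600 and 1231 in bladder and 73, 98 and 0 in heart (-6.39 ± 1.29, adjusted p = 0.00203), and Ptges, at 2417, 2023 and 1680 against 46, 80 and 89 (-4.85 ± 0.93, adjusted p = 0.00132), both near the read ceiling. Pla2g4a, the phospholipase that releases arachidonic acid for these enzymes, was at 2125, 2529 and 3296 in bladder and 342, 320 and 8 in heart (-4.71 ± 0.83, adjusted p = 0.000663).

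**Figure D3:**
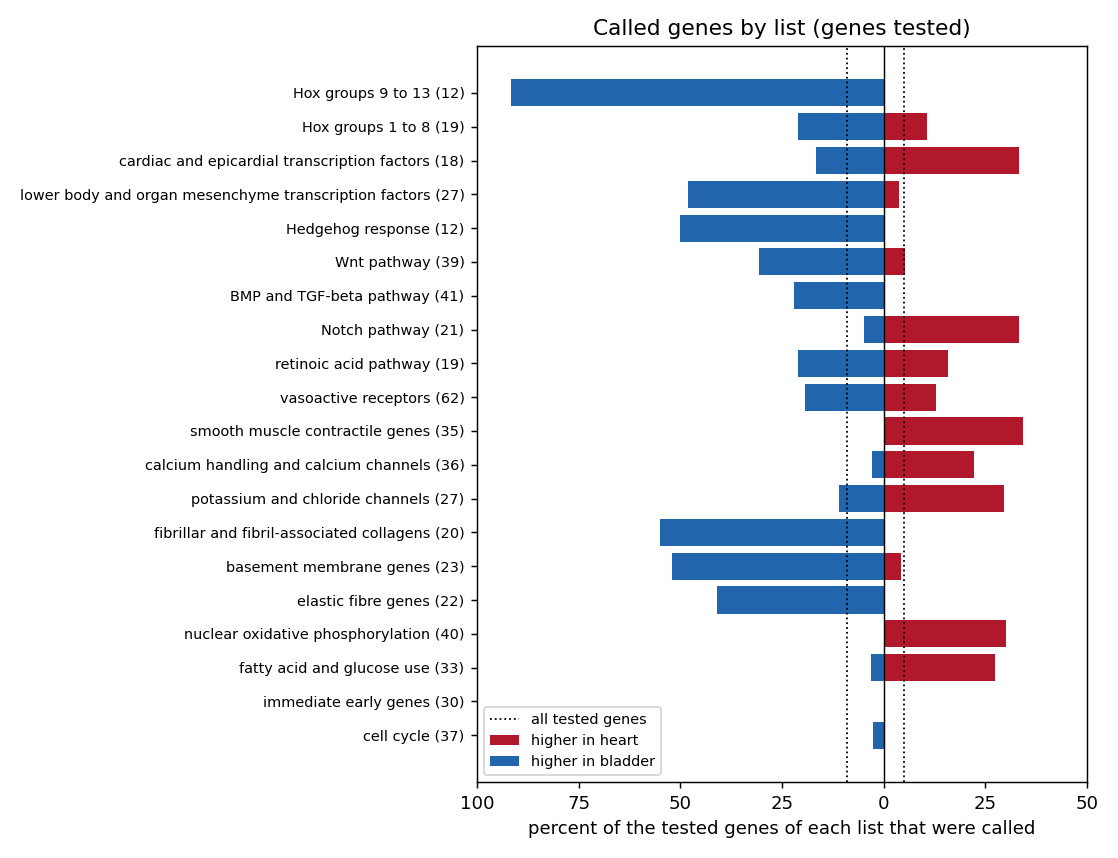
Percent of the tested genes of 20 of the 35 lists that were called higher in heart (red, to the right) or higher in bladder (blue, to the left), with the number tested in parentheses. Dotted lines mark 5.09% and 8.95%, the shares over all 16917 tested genes. Hox groups 9 to 13 reach 11 of 12 on the bladder side, and contractile genes 12 of 35 on the heart side.

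Markers of other cell types also differed, and their part in the gene differences above was not tested. In bulk samples, fewer cells of a type and less RNA per cell cannot be told apart. Pericyte markers, 12 of 21 called higher in heart and 2 higher in bladder (median 1.92, 3 higher in heart under the ceiling), summed to 39433 to 81234 in heart and 13714 to 28217 in bladder. Rgs5, a pericyte and arteriolar smooth muscle gene, was at 6788, 6120 and 32601 against 2000, 2451 and 412 (3.13 ± 0.65, adjusted p = 0.00246, near the read ceiling). Art3, under the ceiling, was at 1606, 1329 and 1594 against 203, 392 and 44 (3.29 ± 0.50, adjusted p = 0.000181). Cardiomyocyte markers, 15 of 22 called higher in heart (median 4.68, or 4.27 with all-0 groups at their bound), summed to 5506 to 8990 in heart and 378 to 1134 in bladder. Mb, or myoglobin, was at 207, 503 and 315 in heart and 2, 0 and 0 in bladder (7.80 ± 1.81, adjusted p = 0.00608). Endothelial markers, 9 of 22 higher in heart and 1, Plvap, higher in bladder (median 2.48, 5 higher in heart without bladder 3, and Plvap not called without bladder 2, adjusted p = 0.0595, or heart 3, 0.0772), summed to 14796 to 19524 and 4608 to 6756. Cdh5, the endothelial cadherin, was at 391, 768 and 186 against 74, 30 and 21 (3.37 ± 0.78, adjusted p = 0.00586).

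On the bladder side, fibroblast and mesothelial markers gave 12 of 23 higher in bladder (median -1.75), with 4 without heart 3 and 5 without bladder 3. Their sums were 48815 to 69317 in bladder and 24806 to 63307 in heart, where heart 3 was the highest. The collagens and Pdgfra are also abundant in fibroblasts. Immune markers gave 12 of 17 tested higher in bladder (median -4.64, or -3.48 with all-0 groups at their bound), with 7 without bladder 3, and summed to 5758 to 11984 and 1228 to 2356. Adgre1, a macrophage gene, was at 137, 65 and 123 in bladder and 0 in every heart library, at least 11.2-fold higher (adjusted p = 0.000114). Urothelial and epithelial markers gave 17 of 25 higher in bladder and 1, Perp, higher in heart (median -4.89, or -4.31 with all-0 groups at their bound). Their sum was 2205 and 2229 in bladder 1 and 2, 17353 in bladder 3 and 2100 to 3908 in heart, where Perp alone gave 2205, 1733 and 3487. Upk1b, a urothelial plaque protein gene, was at 71, 180 and 1372 in bladder and 7, 0 and 0 in heart (-7.03 ± 1.69, adjusted p = 0.0077). Krt15 was at 302, 145 and 636 against 0 in every heart library, at least 37.2-fold higher (adjusted p = 0.000373). Of the 11 called Hox genes of groups 9 to 13, 6 were highest in bladder 3 (Hoxa9, Hoxc9, Hoxc10, Hoxd9, Hoxd11 and Hoxd13), 4 in bladder 2 and 1 in bladder 1. Wnt2 was also highest in bladder 3, and Pitx1, Dkk2 and Hhip were lowest there. The part of epithelial RNA in these values was not tested.

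Visceral and detrusor smooth muscle markers were called in both directions. Of 18, 5 were called higher in heart and 3 (Foxf1, Foxf2 and Hhip) higher in bladder (median -0.01). The counts were 0 and 3 in the 6 libraries alone and 2 and 0 under the read ceiling. Myh11 and Dmpk, both called higher in heart, are in this list but are not particular to visceral muscle. Chrm2 was at 7, 1 and 9 in bladder, and Tacr2 at 1, 0 and 0. Actg2, the enteric smooth muscle actin, was at 1192, 1952 and 938 in bladder and 1613, 1227 and 2330 in heart (0.36, adjusted p = 0.48, near the read ceiling). Schwann and neuronal markers gave 1 of 17 higher in heart and 2 higher in bladder, skeletal muscle markers 1 and 1 of 13, and red blood cell and platelet markers 0 and 1 of 8.

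**Figure D4:**
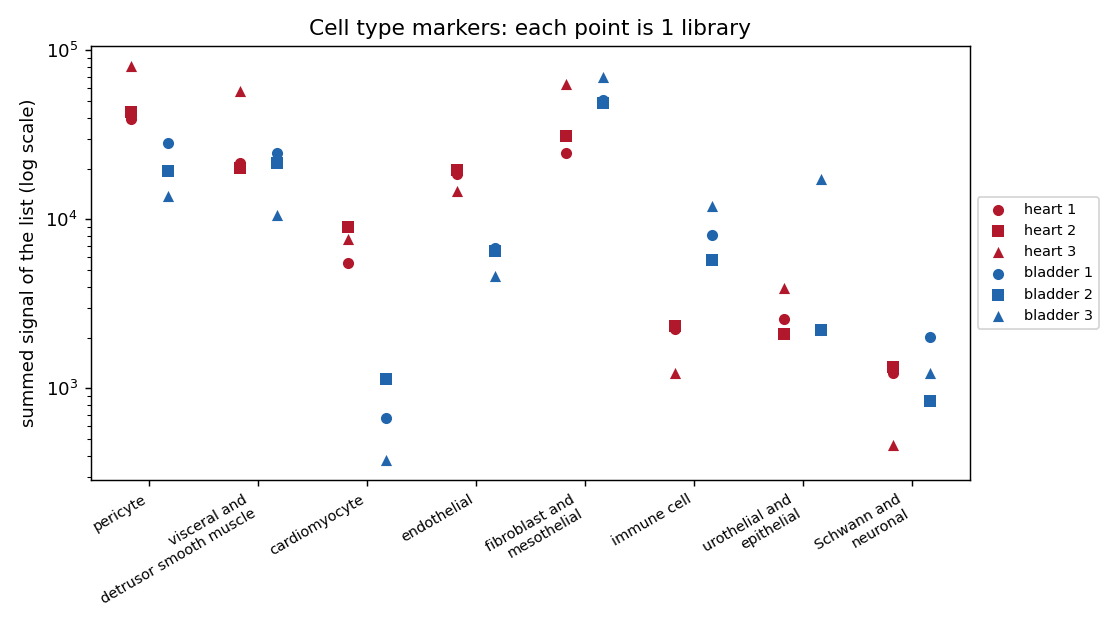
Summed signal of 8 cell type marker lists on a log scale, for each heart (red) and bladder (blue) library, with a different symbol for libraries 1, 2 and 3. Cardiomyocyte and endothelial sums are higher in every heart library and immune sums in every bladder library. Bladder 3, at 17353, stands above the other libraries in epithelial markers.

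Several genes with large differences, all under the read ceiling, lay outside the lists. Corin, a protease that activates natriuretic peptide, was at 377, 569 and 1424 in heart and 6, 6 and 0 in bladder (7.53 ± 0.75, adjusted p = 1.97e-06). Bcar3, a signalling adaptor well measured in both tissues, was at 2156, 1766 and 1852 against 313, 180 and 259 (2.97 ± 0.47, adjusted p = 0.000245). Nes, which encodes nestin, was at 847, 1110 and 445 against 186, 90 and 24 (3.32 ± 0.49, adjusted p = 0.000133). On the bladder side Adam23, a cell adhesion gene of nervous tissue, was at 2368, 2589 and 1580 in bladder and 0, 15 and 0 in heart (-9.72 ± 0.97, adjusted p = 1.97e-06). Cntn4, an axon-associated adhesion molecule, was at 1597, 512 and 630 against 0 in every heart library, at least 94.1-fold higher (adjusted p = 9.09e-07). The peptide gene Edn3, or endothelin 3, was at 1255, 167 and 657 against 0 in every heart library, at least 71.4-fold higher (adjusted p = 8.85e-05). Mc5r, a melanocortin receptor, was at 860, 1070 and 549 against 0 in every heart library, at least 85.2-fold higher (adjusted p = 1.06e-07). Fendrr, Mc5r, Edn3, Cntn4, Hoxa11, Hoxa13 and Mmrn1 made up 7 of the 10 bladder genes with the largest fitted differences among named-gene candidates under the read ceiling, and were all at 0 in the heart.

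Levels in the 5 other tissues place both ends of each difference. Of the 861 genes higher in heart, the heart mean was the highest of the 7 tissue means for 448 (52.0%), and the bladder mean the lowest for 391 (45.4%). Of the 1514 higher in bladder, the bladder mean was the highest for 857 (56.6%), and the heart mean the lowest for 694 (45.8%). Ties count, so a mean of 0 that other tissues share counts as the lowest. The genes were called on these same heart and bladder values, which raises the shares, and no share over all tested genes was computed. Among 6 tissues without the aorta, the heart mean was the highest for 62.4% of the heart genes and the bladder mean the lowest for 55.4%. For the bladder genes these shares were 58.9% highest in bladder and 67.0% lowest in heart, so the more frequent of the 2 depended on the aorta. Cyp26a1 was at 249.7 ± 144 (SD, n = 3) in heart and at most 2.667 in any other tissue. Gata4 was at 996.7 ± 327 in heart but at 2046 in stomach. Hoxa13 was at 481.3 ± 153 in bladder and at most 3.0 elsewhere, but Hoxa10 reached 928.0 in kidney. Adam23, at 2179 ± 530 in bladder, was at most 51.33 in another tissue. Fendrr was at 760.5 in intestine and 0 in aorta, as in heart. By number of called genes, 12 of the 20 other tissue pairs differed more than heart and bladder did. All pairs with the aorta were among them (3264 to 8850 calls), and the aorta libraries held 629456 to 1927765 rebuilt reads. Such numbers also depend on depth and on the libraries per tissue, so they do not rank how different the tissues are. The 2 tissues share their fit with all other pairs.

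**Figure D5:**
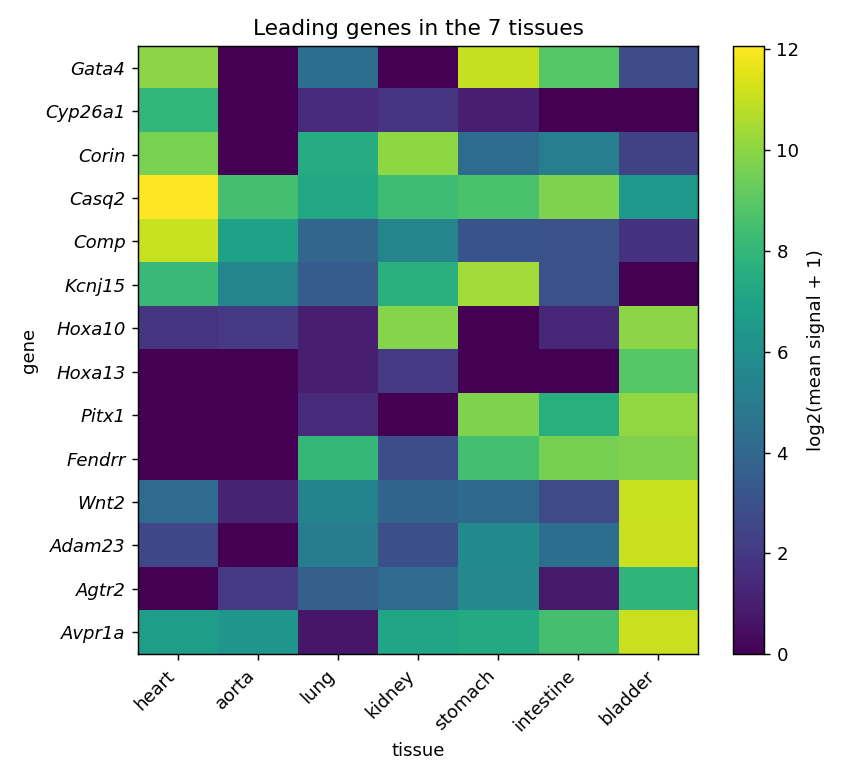
Mean signal as log2(mean + 1) of 14 leading genes (rows) in the 7 tissues (columns), with heart at the left and bladder at the right. Of the 7 tissues, Cyp26a1 is above 2.667 only in heart, and Hoxa13 above 3.0 only in bladder. Gata4 is also high in stomach (2046) and Hoxa10 in kidney (928.0).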

How the data were processed

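RNA of sorted arterial smooth muscle cells was amplified with SMART-Seq v4 (at most 10 ng input), which does not mark strand, per the labels' protocols. Trimmomatic 0.39, STAR 2.7.10a, Picard 3.0.0, featureCounts 2.0.4 and DESeq2 1.36.0 with build mm39 are named in the submitters' processing notes. The authors deposited a signal: read numbers scaled library by library and rounded to integers. The scaling method is not given in the sources used here. The worth of 1 read was rebuilt for each library from the spacing of these values. It is least certain for bladder 2.

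limma 3.58.1 (R 4.3.3) was fitted with a trend on log2(signal + 1) over 22 libraries in 7 groups (15 residual degrees of freedom), for the 16917 of 28099 genes that reached 10 in 3 or more libraries. Since the values are a signal, edgeR 4.0.16, voom and DESeq2 1.42.0 on rebuilt reads served as alternatives. Floors use 3 reads per library and cover counting error only. Exonic lengths matched 96.2% of genes.

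Named genes were called genes without overlap of the libraries, with predicted genes and pseudogenes left out, and genes near the read ceiling left out except in lists. They comprised the 10 largest differences in each direction with a mean of at least 100 in the higher group, the 8 largest with such a mean in both groups, and, for each list, up to 4 called members per direction and the 2 with the highest signal. Genes outside this rule were chosen after their values were seen. This also holds where it is not said beside them, as for Id1, Id2, Id3, Notch3, Kcnd3, Chrm2, Tacr2 and Actg2. The members and lists were chosen with earlier results of these data known.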

Additional observations from a re-analysis of the deposited data

How the results depend on the processing

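The total of 2375 called genes depended on which libraries were fitted and on the tool. Fitting only heart and bladder gave 565 (167 higher in heart, 398 in bladder, and 90 listed genes against 309). That fit also has fewer residual degrees of freedom than the 15 of the main fit. Leaving out the aorta gave 3992 (1555 and 2437), DESeq2 on rebuilt reads 3812 (1542 higher in heart), and leaving out the aorta and heart 3, an alternative chosen after seeing the data, 3877 (1903 higher in heart). Genes under the read ceiling held 187 of the listed genes called. Leaving out 1 heart or bladder library gave 1773 to 2858 calls, 563 to 846 higher in heart, 1004 to 2012 higher in bladder, 240 to 338 listed genes and 10 to 17 tissue pairs with more differing genes. The lowest heart count, 563, came without bladder 3, and the lowest bladder count, 1004, without heart 3. edgeR called 2571 genes and voom 2931. Of the 193 called named genes, 152 were called without heart 3, 149 without bladder 3 and 185 with edgeR, and none changed direction under the 21 alternatives. The depth of heart 3 limits statements on genes listed at 0 there.

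Same-numbered heart and bladder libraries did not deviate together (correlations -0.071, -0.104 and 0.014). The correlations thus gave no sign that the numbers pair the samples. They cannot exclude pairing, since deviations particular to single libraries could hide a shared animal. With the replicate number as a block, 2067 genes were called (748 and 1319), and 183 of the 193 named genes.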

Other observations

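Genes outside the lists, chosen after their values were seen, added further contrasts, and each was called by limma with no overlap between heart and bladder libraries. Slc14a1, a urea transporter, was at 2386, 2009 and 1254 in bladder and 0 in every heart library, at least 194-fold higher (adjusted p = 1.75e-09, near the read ceiling). The odorant receptor genes Or51e1 and Or51e2 were higher in heart. Or51e1 was at 4344, 3617 and 8850 against 533, 335 and 75 in bladder (4.44 ± 0.62, adjusted p = 7.33e-05, near the read ceiling). Or51e2 was at 1456, 1155 and 1537 against 123, 41 and 25 (4.74 ± 1.02, adjusted p = 0.00331). Axon guidance receptors were among the bladder genes. Nrp2 was at 968, 276 and 704 in bladder and 28, 32 and 0 in heart, and Epha3 at 1036, 276 and 639 against 19, 20 and 0. The dioxin receptor gene Ahr was at 1553, 569 and 180 in bladder and 13, 63 and 0 in heart, and Ahrr, its repressor and target gene, at 491, 141 and 122 against 1, 0 and 0. On the heart side, the gap junction gene Gja5 was at 220, 253 and 251 against 14, 0 and 5, and Edn1, or endothelin 1, at 231, 226 and 332 against 12, 29 and 1. Gja5 and Edn1 are also endothelial genes, and the part of endothelial RNA in these values was not tested.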
